A study of Mus musculus with 8 samples.

Results

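The 45 genes described here encode motors and adaptors of axonal transport: kinesins, kinesin light chains, subunits of cytoplasmic dynein and dynactin, and proteins that link these motors to cargo. They were taken by gene symbol from the 55291 genes of the count table, and all 45 were found there exactly once. RNA-seq was performed on polyA RNA of whole lumbar spinal cord from 8 male mice carrying the SOD1G93A transgene, a mutant human superoxide dismutase that causes a motor neuron disease resembling amyotrophic lateral sclerosis. The comparison was of 4 SOD1G93A Agerfl/fl Cx3cr1Cre/+ mice, in which microglia lost Ager (hereafter Ager-deleted), with 4 SOD1G93A Ager+/+ Cx3cr1Cre/+ mice (Cre-expressing controls). The Ager-deleted animals were E1776, E5231, E5248, E5568, and the controls were E5386, E5642, E6578, E6732; values listed without names follow this order. Ager encodes RAGE, a cell surface receptor for advanced glycation end products and damage signals, and the question was what its loss from microglia changed in the diseased cord.

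Both genotypes carried the SOD1G93A transgene and 1 Cx3cr1 allele replaced by a tamoxifen-inducible Cre, on a C57BL/6 background, and per the labels both received 5 tamoxifen injections at 12 weeks of age and were sampled at 120 days. The study's text gives a slightly different age at tamoxifen and places the sequenced cords at the humane endpoint, so the timing and the disease stage differ between these sources. Cx3cr1 drives the Cre in microglia and in related myeloid cells, and no wild-type or Cre-negative cord was part of the comparison. In whole cord, fewer cells of a type and less RNA per cell cannot be told apart.

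An axon depends on the cell body for proteins, vesicles and mitochondria, which are carried along microtubules by motor proteins. Kinesins carry most cargo outward to the synapse, while cytoplasmic dynein, with its activator dynactin, carries cargo back to the cell body. Slowed transport is a long-known feature of motor neuron disease, and these motors are also used by glia, so a whole-cord level is not that of neurons alone.

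Total counts per mouse ranged from 31148047 to 40324897, and the 45 genes together took between 1.015% of counts in control E5642 and 1.201% in Ager-deleted mouse E5248. Values below are CPM, read counts divided by the library's size in units of 1000000 after TMM, a scaling that corrects for differences in library composition, and log2 fold changes are Ager-deleted over control. Ager, the targeted gene, was at 0.889 to 1.51 CPM in the Ager-deleted mice and at 1.53 to 2.41 CPM in controls. These values rest on 35 to 99 reads per mouse. Ager-deleted E5231 and control E5386 had 56 reads each, from 36525320 and 36587452 total counts. The groups were therefore separate only through the TMM factors, 1.017 in E5231 and 1.001 in E5386. The log2 fold change was -0.81 (unadjusted p = 0.0012, adjusted p = 0.252 by the edgeR exact test). Some controls stood apart: the 16 skeletal muscle markers summed to 1226 CPM in E5386 and 1791 CPM in E5642 against 70.3 to 98.4 CPM in the other 6 mice, and liver markers such as Alb were high in E6732 alone, with a mean log2(CPM + 1) of 7.08 against 2.58 to 2.79 elsewhere over the 5 of 10 markers that passed the filter on low counts. Schwann cell markers ranged from 101.6 CPM in E5386 to 1028 CPM in E5642. The defining markers of spinal cord cell types were detected in every mouse.

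None of the 45 transport genes differed between the genotypes after correction over all 19470 genes tested (edgeR exact test with Benjamini-Hochberg adjustment, smallest adjusted p = 0.61). At an unadjusted p under 0.05, 2 were lower in the Ager-deleted mice, Kif5b and Dynlt3, and 0 were higher. The quasi-likelihood test of edgeR, DESeq2 and limma-voom gave the same 2 and 0, with 0 of the 45 past the adjusted threshold in each. Across all genes tested, 14 passed the adjusted threshold (0.0719%), and at the unadjusted threshold 595 were lower (3.06%) and 234 higher (1.2%). The 2 of 45 are therefore close to the share of all genes lower at that threshold, which was 4.03% by the quasi-likelihood test, 4.17% by DESeq2 and 3.65% by limma-voom. The count over all genes depended on the dispersions: with common and tagwise dispersions 78 genes passed the adjusted threshold, and again 0 of the 45. Kif5b alone had 4 controls above all 4 Ager-deleted mice, and 0 genes had all controls below them, against 1.91% of all genes tested for the first pattern and 1.97% for the second.

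The data limited how far apart the genotypes could be. The 95% intervals of the fold change, from the quasi-likelihood fit, lay within 1.5-fold in either direction for 45 of 45 transport genes and within 1.25-fold for 37, compared with 14020 and 8296 of all 19470 genes tested. Their outermost bounds were log2 values of -0.52 (Dynlt3) and 0.41 (Kif17). Counts behind each value ran from 212 (Kif26a in its lowest mouse) to 57340 (Kif1a in its highest). The median SD of log2(CPM + 1) within groups was 0.0989 for the transport genes and 0.132 for all genes tested. All genes tested include genes with fewer counts, such as Ager, and none of these comparisons was matched for level.

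**Figure D1:**
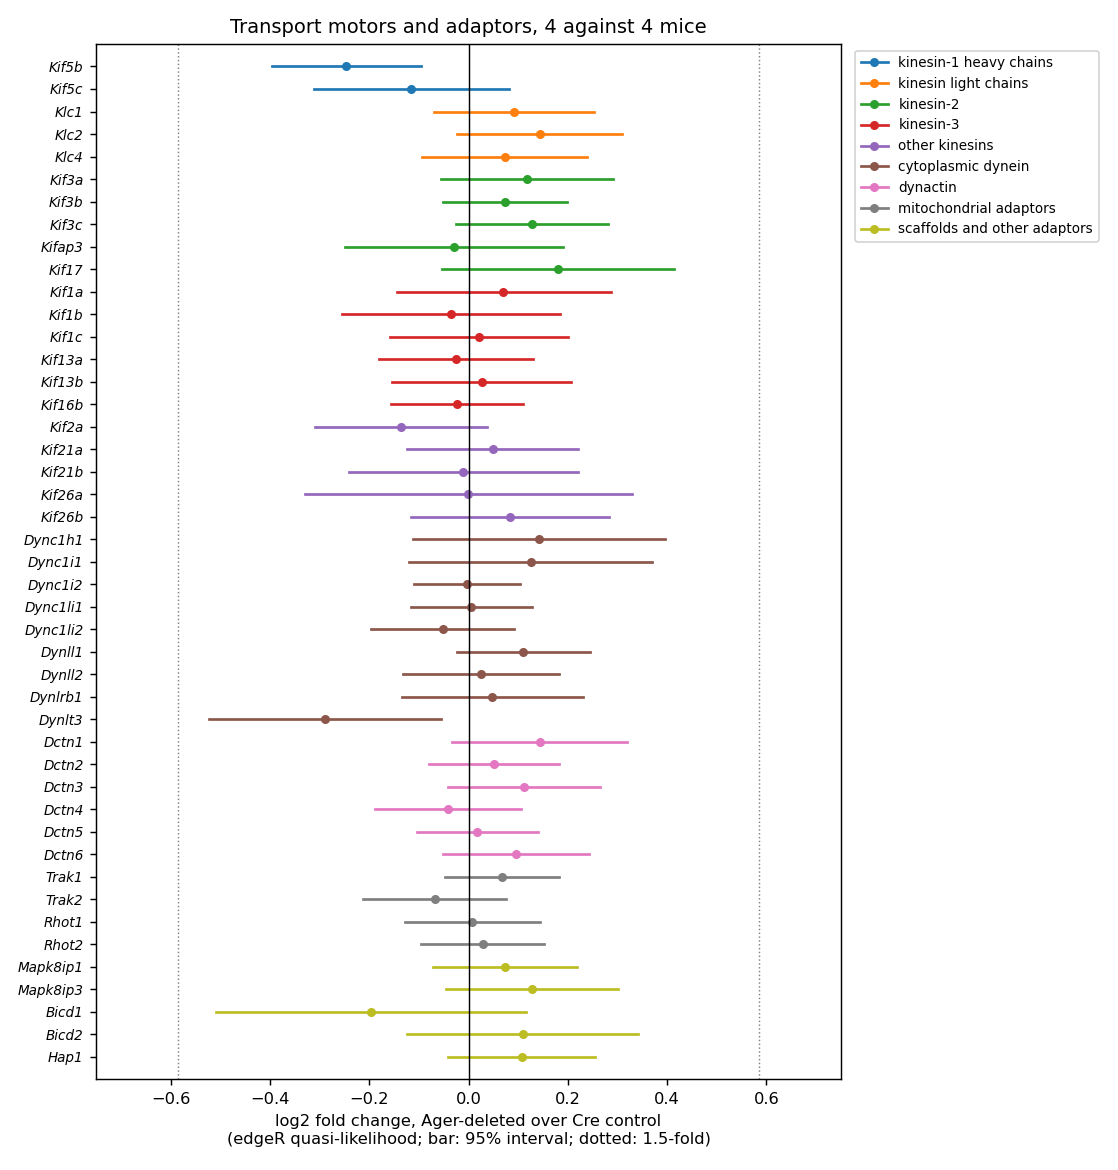
Log2 fold changes (x axis, Ager-deleted over Cre control, n = 4 per group) of the 45 transport genes (y axis), coloured by role, with points for the quasi-likelihood estimate and bars for its 95% interval. Every bar lies between the dotted lines at 1.5-fold, and the bars of Kif5b and Dynlt3 are the only ones that do not cross 0.

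Of the 45 fold changes, 30 were above 0 (66.7%, against 52% of all genes tested) and 15 below, and their median was 0.05 on the log2 scale against 0.0069 for all genes. Without the 2 muscle-positive controls the median was 0.017 (all genes 0.0053), and with a skeletal muscle score as covariate 0.018 (all genes 0.012). The genes were measured in the same 8 mice and vary together, so this share carries no test. By role, the direction was mixed. Among the 45, the 2 kinesin-1 heavy chains were both below 0 and the 3 kinesin light chains all above 0. Kinesin-2 had 4 of 5 above 0, dynactin 5 of 6, cytoplasmic dynein 6 of 9 and the mitochondrial adaptors 3 of 4. The scaffolds and other adaptors had 4 of 5 above 0, kinesin-3 3 of 6 and the other kinesins 2 of 5.

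Kinesin-1 is the major anterograde motor, a dimer of heavy chains that walk and light chains that bind cargo. Kif5b, the heavy chain made in most cell types (chr18:6201002-6242174, minus strand, GRCm38), had 484 (E1776), 435 (E5231), 430 (E5248) and 420 CPM (E5568) in the Ager-deleted mice. In controls it had 527 (E5386), 521 (E5642), 537 (E6578) and 513 CPM (E6732). Every control was above every Ager-deleted mouse, and the controls lay close together, at 524.5 ± 9.84 CPM (SD, n = 4) against 442.3 ± 28.6 CPM (SD, n = 4). The difference was a log2 fold change of -0.25 (SE 0.0675, 95% interval -0.40 to -0.096), a change of -15.7% in mean CPM. The unadjusted p of the edgeR exact test was 0.00545 and the adjusted p 0.61. The exact two-sided permutation test over the 70 ways to divide 8 mice into 4 and 4 gave p = 0.0286, its smallest possible value. Any gene with no overlap between the groups gets this value, so it adds nothing to the separation. Kif5b was about as far below controls without the 2 muscle-positive controls (log2 fold change -0.25, adjusted p = 1 by the edgeR exact test). DESeq2 brought it nearest to the threshold, at an adjusted p of 0.0609.

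Another heavy chain, Kif5a, was not among the genes examined here, so the kinesin-1 heavy chains were not covered in full. Kif5c, a neuron-enriched heavy chain (chr2:49619298-49774778, plus strand), had 630, 534, 668 and 613 CPM in the Ager-deleted mice. In controls it had 636, 652, 733 and 628 CPM. The groups overlapped, with E5231 lowest and control E6578 highest of the 8. Its log2 fold change was -0.12 (SE 0.0886, unadjusted p = 0.274 by the edgeR exact test), and it was -0.055 without E5231 and -0.063 without E6578. Taken per kb of exon, the log2 ratio of Kif5c to Kif5b was 0.62 ± 0.154 (SD, n = 4) in Ager-deleted mice and 0.49 ± 0.0798 (SD, n = 4) in controls, and these ranges overlapped.

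The kinesin light chains lay on the other side of 0. Klc1 (chr12:111758849-111807844, plus strand) had 565, 527, 495 and 553 CPM in the Ager-deleted mice and 491, 486, 544 and 487 CPM in controls. The controls other than E6578 lay below the lowest Ager-deleted mouse, while E6578 was within the Ager-deleted range. Klc2 (chr19:5107746-5118560, minus strand) had 241, 206, 233 and 245 CPM against 203, 197, 230 and 208 CPM, a log2 fold change of 0.14 (SE 0.0751, unadjusted p = 0.13 by the edgeR exact test). E5231 was the low Ager-deleted mouse and E6578 again the high control. Klc4 was at 0.07 on the log2 scale, and no light chain had an unadjusted p under 0.05.

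Kinesin-2 carries vesicles as a trimer of Kif3a, a Kif3b or Kif3c partner and the adaptor Kifap3, and Kif17 acts as a separate dimer in dendrites and cilia. The log2 fold changes of Kif3a, Kif3b and Kif3c were 0.12, 0.07 and 0.13, each with an interval that included 0. Kifap3 (chr1:163779583-163917109, plus strand) was at 197, 176, 243 and 223 CPM in Ager-deleted mice and 197, 214, 230 and 215 CPM in controls. Its lowest and highest values of the 8 were both in Ager-deleted mice, E5231 and E5248, and its log2 fold change was -0.03 (SE 0.0987). Kif17 (chr4:138250435-138301967, plus strand), the only kinesin-2 gene at a low level, had 9.98, 10.2, 11.3 and 12.7 CPM against 9.98, 9.08, 10.7 and 9.34 CPM. It had the highest fold change of the 45, at 0.18 on the log2 scale, but with an interval of -0.054 to 0.41 and an unadjusted p of 0.206 by the edgeR exact test.

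Kinesin-3 motors carry synaptic vesicle precursors, mitochondria and endosomes. Kif1a (chr1:93015464-93101951, minus strand), the neuronal vesicle motor, had the most counts of the 45, with 1456, 1203, 1488 and 1255 CPM in Ager-deleted mice and 1334, 1205, 1368 and 1240 CPM in controls. All 4 controls were between the lowest and highest Ager-deleted mice, and the log2 fold change was 0.07 (SE 0.097). Kif1b, second in CPM, ranged from 1067 to 1346 CPM in the Ager-deleted mice and 1152 to 1323 CPM in controls, at -0.03 on the log2 scale. The other 4, Kif1c, Kif13a, Kif13b and Kif16b, had log2 fold changes from -0.025 to 0.026.

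Of the remaining kinesins, Kif21a (chr15:90933276-91049948, minus strand), a motor that steadies microtubule ends, had 268, 234, 287 and 263 CPM in Ager-deleted mice and 246, 237, 276 and 258 CPM in controls. Its log2 fold change of 0.05 (SE 0.0775) was -0.03 without the 2 muscle-positive controls. Kif2a, which takes microtubules apart at their ends, was at -0.14 (unadjusted p = 0.168 by the edgeR exact test). Kif21b, Kif26a and Kif26b were at -0.011, -0.00031 and 0.083 on the log2 scale.

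Cytoplasmic dynein is built on a heavy chain that holds the motor, with intermediate, light intermediate and light chains that assemble it and bind cargo. Dync1h1, the heavy chain (chr12:110601452-110666945, plus strand), had 940, 688, 925 and 725 CPM in Ager-deleted mice and 787, 683, 765 and 737 CPM in controls. Within the Ager-deleted group E1776 and E5248 were high and E5231 and E5568 low, with an SD of 131.2 CPM against 45 CPM in controls, and the log2 fold change of 0.14 (SE 0.114) lay within that spread. It ran from 0.07 without E1776 to 0.22 without E5231. Dync1i1, the intermediate chain found mostly in neurons, was at 0.13, while Dync1i2, the widely made one, was the steadiest gene of the 45, with its highest mouse only 1.04-fold above its lowest. The light intermediate chains Dync1li1 and Dync1li2 were at 0.0054 and -0.052.

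Dynlt3, a light chain that contacts cargo (chrX:9654267-9663003, minus strand), had 118.5, 122.7, 167.4 and 139.6 CPM in Ager-deleted mice and 152.4, 168.3, 173.4 and 175.7 CPM in controls. E1776, E5231 and E5568 were below every control, but E5248 was within the control range, so the groups overlapped. Its log2 fold change of -0.29 (SE 0.105, 95% interval -0.52 to -0.056) had the largest size of the 45, with an unadjusted p of 0.0159 and an adjusted p of 0.88 by the edgeR exact test and an exact permutation p of 0.0571. The call depended on single mice. Without E5248 the log2 fold change was -0.40 and the adjusted p 0.0383, and without E1776 or E5231 the unadjusted p was 0.0738 or 0.0656 (edgeR exact test).

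The near-identical light chains Dynll1 and Dynll2 serve dynein and many other complexes. Dynll2 (chr11:87979525-87987533, minus strand) had 775, 700, 745 and 790 CPM in Ager-deleted mice and 738, 732, 715 and 775 CPM in controls, and Dynll1 (chr5:115297110-115300999, minus strand) had 93.3, 106.3, 97.7 and 93.9 CPM against 89.98, 92.2, 85.7 and 94.6 CPM. Their log2 fold changes were 0.02 (SE 0.0709) and 0.11 (SE 0.0604), and both groups overlapped for each gene. Reads shared between the 2 copies could not be examined. Dynlrb1, which helps to join the light and intermediate chains, was at 0.05.

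Dynactin links dynein to cargo and keeps it on the microtubule. Dctn1, the large subunit that binds both dynein and microtubules (chr6:83165920-83200117, plus strand), had 360, 284, 327 and 318 CPM in Ager-deleted mice and 299, 271, 302 and 294 CPM in controls. E5231 again lay among the controls, and the log2 fold change was 0.14 (SE 0.0797, unadjusted p = 0.145 by the edgeR exact test). The other subunits, Dctn2 to Dctn6, had log2 fold changes from -0.041 (Dctn4) to 0.11 (Dctn3).

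**Figure D2:**
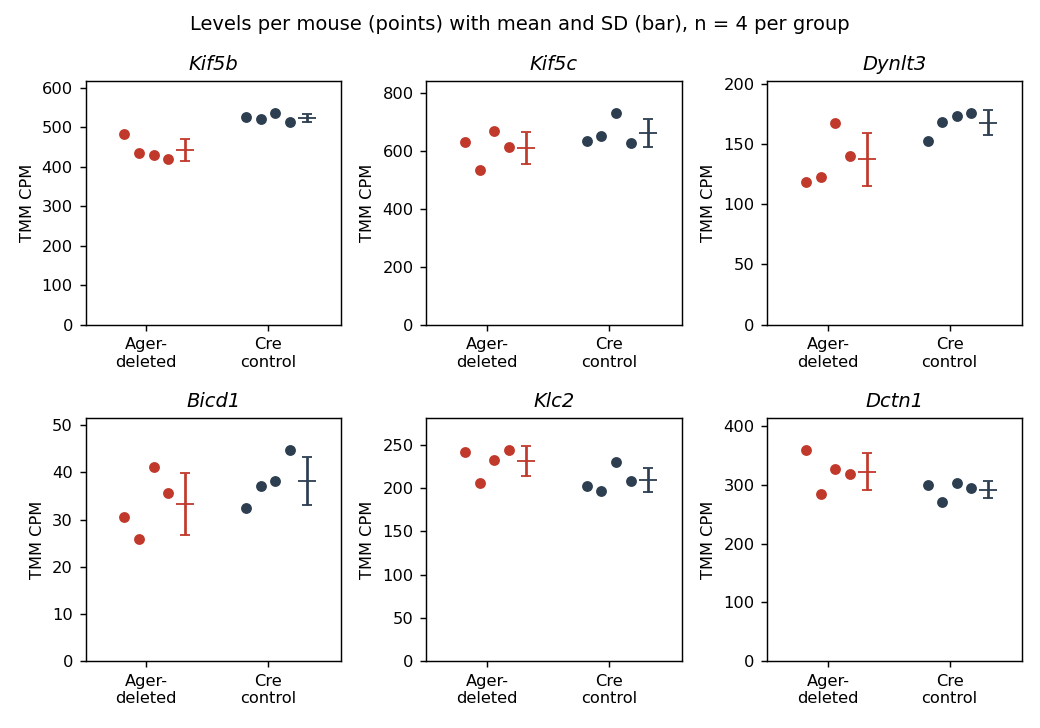
TMM-normalised CPM per mouse (y axis, from 0) of 6 transport genes in the 2 genotypes (x axis), with points for mice and bars for the mean and SD (n = 4 per group). Kif5b has no overlap between 420 to 484 CPM in Ager-deleted mice and 513 to 537 CPM in controls, and the other 5 genes overlap.

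Among the adaptors, Trak1 and Trak2 join kinesin and dynein to the mitochondrial GTPases Rhot1 and Rhot2. Trak2 (chr1:58900449-58973430, minus strand) had 272, 245, 265 and 235 CPM in Ager-deleted mice and 276, 270, 260 and 260 CPM in controls, with a log2 fold change of -0.07 (SE 0.0651) and overlapping groups. Trak1, Rhot1 and Rhot2 were at 0.068, 0.0073 and 0.028. Of the scaffolds, Mapk8ip3 (chr17:24892153-24936977, minus strand), which joins kinesin-1 and dynactin to vesicles, had 543, 467, 542 and 504 CPM against 484, 434, 506 and 459 CPM, and E5231 was the low Ager-deleted mouse there too. Its log2 fold change was 0.13 (SE 0.0781, unadjusted p = 0.189 by the edgeR exact test).

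Bicd1 (chr6:149408886-149563329, plus strand), a dynein adaptor, had 30.5, 25.9, 41.0 and 35.7 CPM in Ager-deleted mice and 32.4, 37.1, 38.2 and 44.8 CPM in controls. Its highest mouse, control E6732, was 1.73-fold above its lowest, E5231, the widest range of the 45. The log2 fold change was -0.20 (SE 0.14, unadjusted p = 0.207 by the edgeR exact test). It was -0.094 without E5231 and -0.31 without E5248 (unadjusted p = 0.0367 by the edgeR exact test), and -0.11 without E6732. Bicd2, Mapk8ip1 and Hap1, the partner of huntingtin on transported vesicles, were at 0.11, 0.07 and 0.11.

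Levels between genes were compared as CPM per kb of merged exons over all 8 mice. Dynll2 was highest at 273 CPM per kb, followed by Kif1a at 141.3, Klc1 at 127.4, Dynlrb1 at 93.6, Kif5c at 89.1 and Kif1b at 70.4. The lowest were Kif26a at 1.08, Bicd1 at 1.30, Kif26b at 1.96, Kif17 at 2.27 and Kif16b at 2.86 CPM per kb, so the 45 genes spanned 253-fold. The ranges over mice were separate in 6 of 44 neighbouring pairs, such as Dynll2 above Kif1a, Klc1 above Dynlrb1 and Kif21b above Kif16b. Neighbours were not compared within each mouse, so an overlap of ranges does not show that 2 genes had the same level. Dync1h1 was at 49.9 CPM per kb and Dctn1 at 47.2. The order depended on the length used. With the longest protein-coding transcript in place of merged exons, Dynll2 was still highest (301.4) and Kif26a lowest, but Klc1 (207) was above Kif1a (160.7), Dctn2 rose from rank 16 to rank 4 (125.9), and Kif5c fell from rank 5 to rank 8. By that length Dctn1 was at 71.0 and Dync1h1 at 54.5 CPM per kb, Mapk8ip3 was at 87.9 in place of 33.8, and Bicd1 was at 3.69, no longer second lowest.

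**Figure D3:**
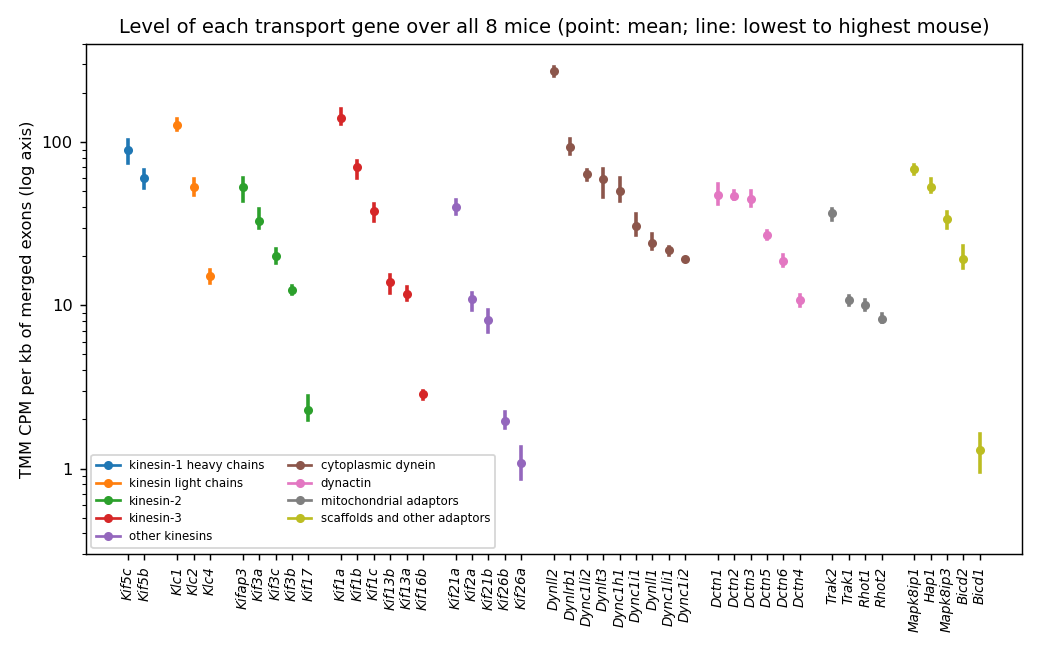
TMM-normalised CPM per kb of merged exons (y axis, log scale) of each transport gene, grouped and coloured by role (x axis), with points for the mean of 8 mice and lines from the lowest to the highest mouse. With this length, levels run from Dynll2 at 273 to Kif26a at 1.08 CPM per kb, and each role except the kinesin-1 heavy chains spans a wide range.

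The transport genes varied little between mice. The highest of the 8 mice was under 1.5-fold above the lowest for 43 of the 45 genes and under 1.25-fold for 27, with a median of 1.24-fold against 1.42-fold for all genes tested. The exceptions to the first were Bicd1 (1.73-fold) and Kif26a (1.57-fold). All genes tested include genes with fewer counts than any of the 45, and the 2 medians were not matched for level. The highest value of the 8 mice was in E1776 for 11 genes, E5231 for 5, E5248 for 10 and E5568 for 10. Among controls it was in E5386 for 2, E5642 for 1, E6578 for 2 and E6732 for 4. The lowest value was in E1776 for 3, E5231 for 11, E5248 for 5 and E5568 for 5. Among controls it was in E5386 for 4, E5642 for 13, E6578 for 2 and E6732 for 2. The genes vary together over the mice, and variation within groups was not compared with that between genotypes.

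As the median deviation of the 45 genes from their mean over 8 mice, in log2(CPM + 1), the Ager-deleted mice were at 0.055 (E1776), -0.072 (E5231), 0.075 (E5248) and 0.027 (E5568). Controls were at -0.032 (E5386), -0.039 (E5642), 0.027 (E6578) and -0.019 (E6732). The genotypes overlapped, and the extremes were both Ager-deleted mice. E5231 and E5248 were also the extremes for the neuron and microglia markers. The 10 neuron markers summed to 5615 CPM in E5231 and 7710 CPM in E5248, and the 10 microglia markers to 2188 and 1294 CPM. E5231 and E5248 were not the extremes for every list. Motor neuron markers were lowest in Ager-deleted E5568 (139.1 CPM) and highest in control E6578 (232.2 CPM). Across groups, neuron markers summed to 5615 to 7710 CPM in Ager-deleted mice and 6303 to 6873 CPM in controls, and the 10 motor neuron markers, such as Chat, to 139.1 to 220.3 CPM and 154.9 to 232.2 CPM. No marker of either list was at 0 in all mice. The part of cell makeup in the values of the transport genes was not tested.

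**Figure D4:**
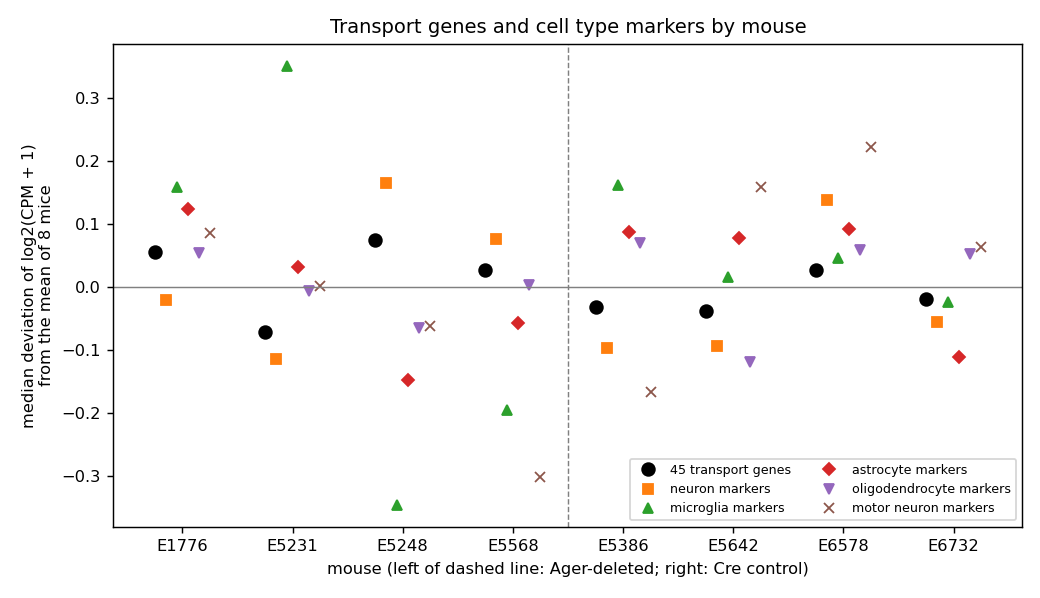
Median deviation of log2(CPM + 1) from the mean of 8 mice (y axis) for the 45 transport genes and 5 lists of cell type markers (symbols) in each mouse (x axis, Ager-deleted left of the dashed line). The transport genes range from -0.072 in E5231 to 0.075 in E5248, and the microglia markers from 0.35 in E5231 to -0.35 in E5248.

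Deviations also went with gene length in some mice. Across the 45 genes, Spearman's rho between a mouse's deviation and merged exon length was 0.33 (E1776), -0.27 (E5231), 0.25 (E5248) and -0.54 (E5568) with Ager deleted, and 0.28 (E5386), -0.10 (E5642), -0.080 (E6578) and 0.33 (E6732) among controls. Among 12574 genes at 5 CPM or more the values, in the same order, were 0.09, -0.40, 0.37 and -0.30, then 0.057, -0.013, 0.00063 and 0.20. The Ager-deleted mice thus went in different directions, and between genotypes rho of the log2 fold change with length was -0.23 for the 45 genes and -0.12 for all. These are descriptions across genes, which share libraries and are not independent replicates. In E5568 the 19 transport genes of 7000 bp or more had a median deviation of -0.050 and the 12 of 4000 bp or less one of 0.083. RNA integrity numbers were 7.9 to 8.7 per the labels, with no value per mouse used here, and the part of RNA quality was not tested.

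**Figure D5:**
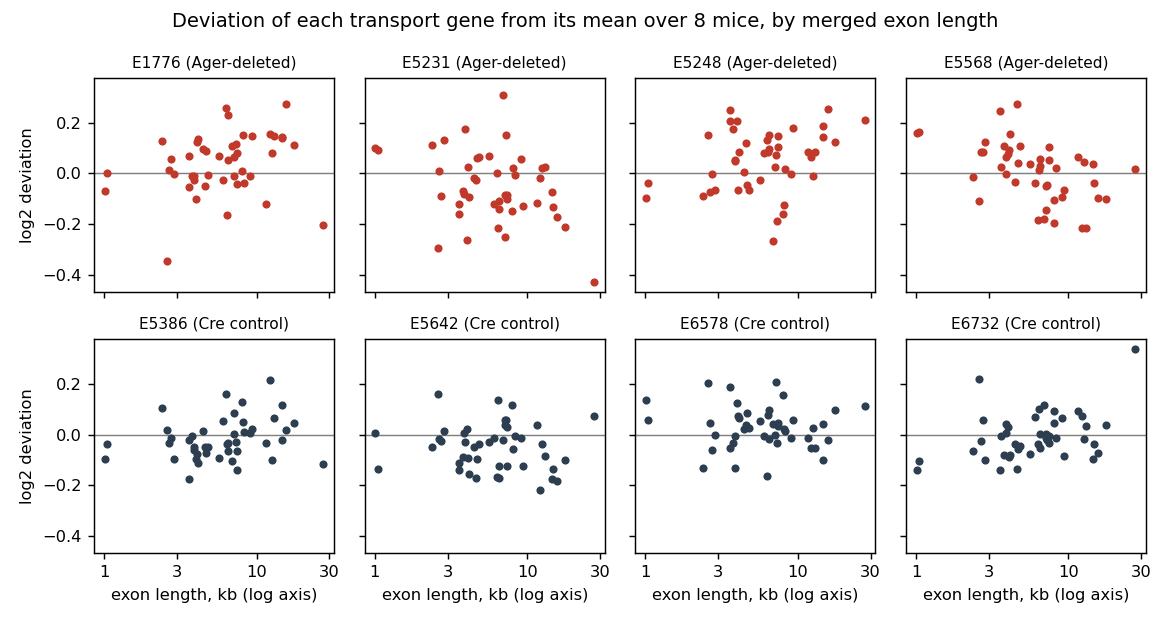
Deviation of each transport gene from its mean over 8 mice, in log2(CPM + 1) (y axis), by merged exon length in kb (x axis, log scale), 1 panel per mouse with Ager-deleted mice above and controls below. Long genes lie low in E5568 (rho -0.54) and high in E1776 (rho 0.33), and the points of controls E5642 and E6578 show little slope (rho -0.10 and -0.080).

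The wider pathway was measured with 57 further genes of motors, adaptors, tubulins and microtubule-associated proteins, of which 56 passed the filter on low counts (Map7d3 did not). In the edgeR exact test 0 of the 56 passed the adjusted threshold, and 1 was lower and 1 higher at an unadjusted p under 0.05. Of the 56, 38 were above 0 (67.9%, against 52% of all genes tested). Their median was 0.07 on the log2 scale, against 0.0069 for all genes. They come from the same 8 mice, so this share carries no test and is no independent repeat. It was not recomputed without the 2 muscle-positive controls. By the quasi-likelihood test 5 had an unadjusted p under 0.05, against 6.71% of all genes tested in either direction. Bicdl1, Rab11fip3, Madd and Map6 were higher and Capza2 was lower, against 2.68% and 4.03% of all genes tested. The smallest adjusted p of the 56 by that test was 0.705. Bicdl1, a dynein adaptor related to Bicd1 and Bicd2 (chr5:115648175-115731621, minus strand), had 35.6, 37.6, 35.9 and 34.3 CPM in Ager-deleted mice and 31.6, 29.2, 29.8 and 30.4 CPM in controls. Every Ager-deleted mouse was above every control, with a log2 fold change of 0.25 (SE 0.0567), an unadjusted p of 0.00471 and an adjusted p of 0.553 by the edgeR exact test.

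Capza2, a subunit of the protein that caps the short actin-like filament of dynactin and actin filaments elsewhere (chr6:17636234-17666972, plus strand), had 186, 212, 208 and 204 CPM in Ager-deleted mice and 217.5, 239, 230 and 231 CPM in controls. The groups did not overlap, and the log2 fold change was -0.18 (SE 0.0621, unadjusted p = 0.033, adjusted p = 1 by the edgeR exact test). Rab11fip3, an effector of recycling endosomes named after its values were seen, was the other gene of the 56 whose groups did not overlap, with 81.7 to 95.2 CPM in Ager-deleted mice and 77.7 to 81.3 CPM in controls (unadjusted p = 0.061 by the edgeR exact test). The 2 higher and 1 lower with separate groups stand beside 1.97% and 1.91% of all genes tested. For each of the 3 the exact permutation p was 0.0286, the smallest possible.

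Exons of 14 of the 45 genes overlapped exons of another annotated gene. The largest single overlaps covered 35.3% of Kif3c exons (1110002L01Rik, opposite strand), 29.4% of Rhot2 (Gm20683, same strand) and 19.2% of Kif2a (Dimt1, opposite strand). Mapk8ip3 overlapped several genes, at 10.7% of its exons (Eme2, same strand), 8.99% (Mrps34, opposite strand) and 3.96% (Nme3, opposite strand). The Kif5b overlaps covered 2.28% (AC113003.1) and 1.78% (Gm17036) of its exons, both on the opposite strand. The library kit was stranded, but the strand setting of the read counting was not given in the sources used here, so reads of the overlapping partners could not be told apart from those of the transport genes at these bases.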

How the data were processed

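RNA-seq of lumbar spinal cord from 8 mice was analysed. Per the labels and methods, reads were trimmed with Trimmomatic 0.36, aligned to mm10 with STAR 2.7.3a and counted per gene with featureCounts (Subread 1.6.3) on GENCODE annotation. The authors deposited raw counts per gene, used for every test, and a table of log2 TMM-normalised CPM, used only to check the recomputed values, which differed by at most 4.78e-06. Mice were grouped by genotype label. Replicates were separate mice, and 28 library pairs all differed by more than counting noise.

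Genes were filtered with filterByExpr (minimum count 10), scaled by TMM and tested by edgeR 4.0.16 exactTest in R 4.3.3. TMM and exactTest are named in the study's methods; the filter and the dispersions (estimateDisp without a design) were chosen here. P-values were adjusted by Benjamini-Hochberg over 19470 genes at a threshold of 0.05. Standard errors and 95% intervals came from the quasi-likelihood test. Single genes were also compared on log2(CPM + 1) by exact permutation. Alternatives used DESeq2 1.42.0, limma 3.58.1 voom, other scalings, filters, dispersions, covariates and left-out mice. Positions and lengths came from GENCODE M21 on GRCm38, an earlier release than the one counted on, matched by symbol (19079 genes matched once, all 45 transport genes included). The lists were written by hand, and the members and lists were chosen with earlier results of these data known. Per-mouse values were given for genes past an unadjusted p of 0.05, with non-overlapping groups, among the 5 largest fold changes or 3 highest levels per kb, for the highest in each role, and for both Dynll copies; of the wider pathway, for those past an unadjusted p of 0.05. The scripts were tested on simulated data.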

Additional observations from a re-analysis of the deposited data

Results flagged for a closer look

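In 5 of 90 groups (45 genes in 2 genotypes) 1 mouse lay far from the other 3; chance gives about 1 in 20 such groups. All 5 were the highest control. In control E6578 these were Klc1 (544.3 CPM, the other controls 485.5 to 491.2), Dync1i1 (124 CPM, others 96.1 to 100.4), Dctn2 (228.7 CPM, others 217.2 to 218.9) and Dctn5 (73.85 CPM, others 69.96 to 70.61). In control E5642 it was Kif1c (284 CPM, others 266.8 to 269.3). E6578 had the highest motor neuron marker sum of the 8 mice, 232.2 CPM; its part in these values was not tested.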

How the results depend on the processing

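Fold changes of the genes given per mouse, counts of calls and the median were recomputed under other scalings, filters, tests and covariates and without each mouse; counts of separate groups with library size scaling and left-out mice only, permutation differences with another pseudocount, and levels per kb with another length. Sums over marker lists, length correlations and ratios were not recomputed. Kif5b stayed lower in the Ager-deleted mice in 20 of 20 alternatives (log2 fold change -0.29 to -0.22, adjusted p from 0.0609 to 1), and the median log2 fold change of the 45 genes stayed above 0 (0.017 without E5386 and E5642 to 0.073 with library size scaling). Of the 45 genes, 0 to 1 passed the adjusted threshold when a mouse was left out, the 1 being Dynlt3 without E5248 (-0.40). At an unadjusted p under 0.05, leaving out a mouse gave 1 to 3 lower genes (1 without E1776 or E5231, where 2.15% and 3.2% of all genes were lower, and 3 without E5248, where 4.72% were) and 0 to 2 higher genes, the 2 (Klc2 and Dctn1) without E5231, where 1.57% of all genes were higher. A neuron marker covariate gave 5 lower (Kif5b, Kif5c, Kif2a, Dynlt3 and Bicd1) and 1 higher (Dynll1), against 5.9% and 3.43% of all genes, and a gene length covariate, added after the data were seen, gave 4 higher (Kif3a, Kif3c, Dync1h1 and Dctn1), against 3.69%. Genes with separate groups numbered 1 to 3 lower when a mouse was left out (3 without E5248 and 2 without E5386, against 5.91% and 4.85% of all genes) and 0 to 4 higher (4 without E5231 or E6578 and 1 without E6732, against 4.03%, 4.02% and 2.88%). There was 1 higher with library size scaling only (2.75% of all genes), and 2 lower without E5386 and E5642 (7.05%). The cause of these changes was not tested. Kif21a turned to -0.029 without E5386 and E5642 and to -0.024 with a skeletal muscle covariate, and Kifap3 ranged from -0.11 to 0.047 as mice were left out. Of the 56 further pathway genes, 2 had an unadjusted p under 0.05 by the exact test and 5 by the quasi-likelihood test. Over all genes, adjusted calls ranged from 1 to 98 by setting. No paired analysis was possible because the labels carry no shared replicate numbers.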
